A study of Oryza sativa with 18 samples.

Results

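The genes described here are the heat shock proteins and heat stress factors of rice, 49 genes chosen by name. A gene was taken when its symbol or a synonym, after a leading Os was dropped, began with HSP and a number or was HSFA, HSFB or HSFC with a number. Of the 49, 43 had a probe set that maps to a single gene, out of 17905 genes with such a probe set on the array, and 41 were bright enough to be tested. They comprised 22 small heat shock protein genes (19 with a probe set, 17 tested), 3 HSP90 genes, 1 HSP100 gene, 13 class A heat stress factors (12 tested), 6 class B factors (5 tested) and 4 class C factors (3 tested). No HSP60 or HSP70 gene was matched by the names. Chaperone genes under other names, such as CLPB-C, CLPB-M and BIP1, were read in a separate list.

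Heat stress factors are transcription factors that bind the heat shock element in promoters. Class A factors carry an activation domain and drive heat shock protein genes, class B factors lack it and often act as repressors, and class C is best known from grasses. Small heat shock proteins hold unfolding proteins without using ATP, HSP90 matures client proteins that include plant immune receptors, and HSP100 pulls proteins out of aggregates. These genes are known for heat, and many also respond to drought, oxidative stress and wounding.

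The samples were leaf sheaths, sampled at the 4-leaf stage, of 9311, a rice variety susceptible to the brown planthopper, and of NIL-BPH9, a resistant line. The line's name marks it as near-isogenic and carrying BPH9, a planthopper resistance gene. Each line was sampled without insects at 0 h and after 3 h and 6 h with the planthopper, an insect that feeds on phloem sap. This gave 6 groups of 3 biological replicates, 18 arrays in all. No uninfested plants at 3 h or 6 h were analysed here, so in every comparison over time the infestation and the time of day cannot be told apart. In whole leaf sheath, fewer cells of a type and less RNA per cell cannot be told apart either.

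Values are log2 signals of the brightest single-gene probe set of each gene, so they serve to compare samples and not genes. Between replicates the array correlation was 0.928 to 0.939, and between groups it was 0.920 to 0.934. On the fourth principal component (6.88% of the variance) replicate 3 of 9311 at 0 h lay at 74.45, while the others lay between -46.90 and 31.57. Some clock genes, which follow the time of day, changed with the time points. PRR95 fell at 3 h by 0.585 in 9311 and by 1.06 in NIL-BPH9 on the log2 scale. At 3 h 2 of 6 tested clock genes were lower in 9311 and 4 of 6 in NIL-BPH9, against 7.22% and 6.47% of all tested probe sets. At 6 h against 0 h 0 of 6 were called in 9311, and 4 were lower in NIL-BPH9, against 3.33% and 10.4% of all called lower. At 0 h 3 of the 6 were higher in NIL-BPH9 than in 9311 (GI, PRR1 and PRR95), against 6.92% of all tested probe sets. The response of 2 at 3 h and 1 at 6 h was more negative in NIL-BPH9, against 4.72% and 3.19%. Of the green leaf markers, CAB2R and rbcS were not called in any comparison, while LHCP was lower at 3 h in 9311 (-0.665 on the log2 scale) and higher in NIL-BPH9 than in 9311 at 3 h (0.66) and 6 h (0.615). The LHCP response differed between the lines at 3 h (0.615) and 6 h (0.569). The 3′ to 5′ signal ratio of 5 control transcripts, a measure of RNA integrity, had a mean log2 of 1.61 ± 0.0371 (SD, n = 3) in 9311 at 0 h and of 1.68 to 1.77 in the other groups. The part of clock, LHCP and integrity in the results was not tested.

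In all, 24 of the 41 tested genes (58.5%) passed the threshold in at least 1 of 9 comparisons (adjusted p under 0.05, limma across all 33094 tested probe sets), and 17 passed in none. The same was true of 42.0% of all tested probe sets and of 56.5% of the brightest probe sets of 16053 genes, so the share of the members was near that of the latter. That second background is given because members were read from their brightest probe set and bright probe sets are called more often. By family these were 9 of 17 small heat shock protein genes, all 3 HSP90 genes, 0 of 1 HSP100 gene (with 2 of its unadjusted p-values under 0.05 among 9 comparisons), 7 of 12 class A, 4 of 5 class B and 1 of 3 class C factors. The changes were small: a single call, HSP26.2 in NIL-BPH9 from 3 h to 6 h, reached 2-fold. The counts per comparison follow, beside the share called among all tested probe sets and among the brightest per gene.

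At 3 h against 0 h, 12 members (29.3%) were called in 9311, 5 higher and 7 lower, against 14.8% of all probe sets (7.61% higher and 7.22% lower) and 21.8% of the brightest. In NIL-BPH9 14 (34.1%) were called at 3 h, 7 higher and 7 lower, against 14.1% (7.61% higher and 6.47% lower) and 19.9%. That count was between 7 and 9 without any 1 of the 6 NIL-BPH9 arrays at 0 h and 3 h. At 6 h against 0 h, 6 members (14.6%) were called in 9311, 2 higher and 4 lower, against 7.62% (4.29% higher and 3.33% lower) and 11.2%. This count was 10 without 9311 0 h replicate 3 and 3 without 9311 6 h replicate 1, and none of the 6 was called when only the arrays compared were fitted (adjusted p 0.0574 to 0.192). In NIL-BPH9 9 (22.0%) were called at 6 h, 8 higher and 1 lower, against 18.7% (8.28% higher and 10.4% lower) and 25.3%. The total was thus near the background, while 8 of the 9 calls went one way. It was 5, all higher, without NIL-BPH9 6 h replicate 1 or 2. From 3 h to 6 h, 5 members (12.2%) were called in 9311, 3 higher and 2 lower, against 5.14% (2.96% higher and 2.17% lower) and 7.40%. In NIL-BPH9 9 (22.0%) were, 7 higher and 2 lower, against 14.9% (7.17% higher and 7.76% lower) and 21.5%.

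Between the lines, 8 members (19.5%) differed before infestation, 5 higher and 3 lower in NIL-BPH9, against 14.4% of all probe sets (6.92% higher and 7.49% lower) and 20.4% of the brightest. At 3 h 6 (14.6%) differed, all higher in NIL-BPH9, against 7.46% (4.25% higher and 3.21% lower) and 10.1%. At 6 h 13 (31.7%) differed, 12 of them higher in NIL-BPH9, against 11.3% and 15.9%. The 3 h count was 2 without 9311 3 h replicate 2 and 3 without NIL-BPH9 3 h replicate 1, all higher. The 6 h count was 8, all higher, without 9311 6 h replicate 2 or NIL-BPH9 6 h replicate 1 or 3. Over all tested probe sets the directions at 6 h were almost even, with 5.75% higher and 5.54% lower in NIL-BPH9.

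**Figure D1:**
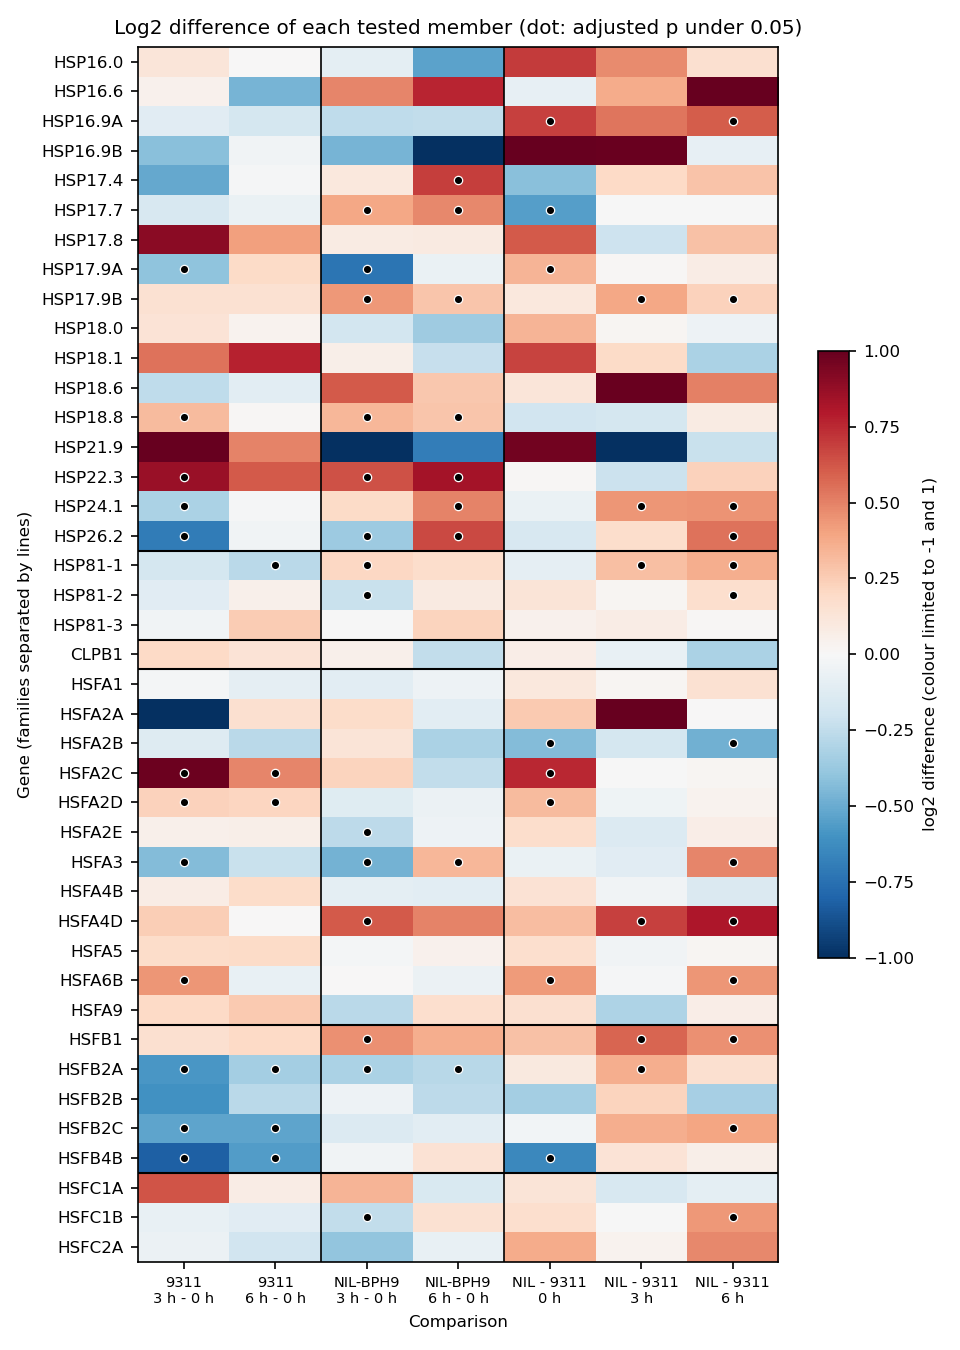
Log2 difference of each of the 41 tested genes (rows, grouped by family) in 7 comparisons (columns), with red for higher, blue for lower and a dot where adjusted p was under 0.05. In the last column, NIL-BPH9 minus 9311 at 6 h, 12 of the 13 dots lie on red.

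Among the class A factors, 4 of 12 (33.3%) were called in 9311 at 3 h, 3 higher and 1 lower, against 14.8% of all probe sets and 21.8% of the brightest. In NIL-BPH9 3 of 12 (25.0%) were, 1 higher and 2 lower, against 14.1% and 19.9%, so that count was near the background. Of the 4 called in 9311, HSFA2C and HSFA2D, both higher, come from entries that also carry the name of an enzyme, as given below. The factor with the same course in both lines at 3 h was HSFA3, which in Arabidopsis acts downstream of the drought and heat regulator DREB2A. In 9311, HSFA3 read 8.43, 8.64 and 8.57 at 0 h, 8.18, 8.03 and 8.13 at 3 h and 8.21, 8.50 and 8.26 at 6 h. In NIL-BPH9, HSFA3 read 8.42, 8.54 and 8.48 at 0 h, 8.04, 8.01 and 7.96 at 3 h and 8.74, 8.74 and 8.95 at 6 h. All 3 h arrays of a line lay below all its 0 h arrays, and in NIL-BPH9 all 6 h arrays lay above every other array of the gene. HSFA3 fell at 3 h in 9311 (-0.43 ± 0.11 on the log2 scale, 1.35-fold, adjusted p = 0.00823) and in NIL-BPH9 (-0.48 ± 0.11 on the log2 scale, 1.39-fold, adjusted p = 0.00441). In NIL-BPH9 it then rose from 3 h to 6 h (0.81 ± 0.11 on the log2 scale, 1.75-fold, adjusted p = 2.02e-05), to a level above that at 0 h (0.33 ± 0.11 on the log2 scale, 1.26-fold, adjusted p = 0.0347). In 9311 the difference from 3 h to 6 h was not called (0.21 ± 0.11, adjusted p = 0.343), and at 6 h NIL-BPH9 was higher than 9311 (0.49 ± 0.11 on the log2 scale, 1.4-fold, adjusted p = 0.00441). The lines differed in the 6 h response by 0.55 ± 0.15, adjusted p = 0.0321. The rise of HSFA3 over 0 h was no longer called without NIL-BPH9 0 h replicate 1 or 3 or NIL-BPH9 6 h replicate 1, 2 or 3 (log2 0.26 to 0.37, adjusted p 0.0513 to 0.152). The line difference was no longer called without 9311 0 h replicate 2 or 3 or 9311 6 h replicate 1 or 3 or NIL-BPH9 0 h replicate 1 or 3 or NIL-BPH9 6 h replicate 3 (log2 0.48 to 0.55, adjusted p 0.0512 to 0.0873).

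HSFA4D, whose loss of function in the spotted leaf mutant spl7 lets lesions form without a pathogen, was higher in the resistant line after infestation. In 9311, HSFA4D read 6.88, 7.02 and 7.54 at 0 h, 7.50, 7.39 and 7.30 at 3 h and 7.19, 7.16 and 7.11 at 6 h. In NIL-BPH9, HSFA4D read 7.59, 7.50 and 7.29 at 0 h, 8.34, 8.07 and 7.82 at 3 h and 8.09, 7.77 and 8.02 at 6 h. In NIL-BPH9 all arrays at 3 h and 6 h lay above every 9311 array and above the line's own 0 h arrays. HSFA4D rose at 3 h in NIL-BPH9 (0.62 ± 0.18 on the log2 scale, 1.53-fold, adjusted p = 0.0238), and its 6 h value missed the threshold (0.50 ± 0.18, adjusted p = 0.0563). It was higher in NIL-BPH9 than in 9311 at 3 h (0.68 ± 0.18 on the log2 scale, 1.6-fold, adjusted p = 0.0202) and 6 h (0.81 ± 0.18 on the log2 scale, 1.75-fold, adjusted p = 0.00464). The responses themselves were not shown to differ between the lines (0.37 ± 0.25, adjusted p = 0.404 at 3 h; 0.49 ± 0.25, adjusted p = 0.257 at 6 h). The 3 h rise was no longer called without NIL-BPH9 0 h replicate 3 or NIL-BPH9 3 h replicate 1 or 2 (log2 0.49 to 0.62, adjusted p 0.0633 to 0.131), and the 3 h difference between lines without 9311 3 h replicate 2 or 3 or NIL-BPH9 3 h replicate 1 or 2 (log2 0.55 to 0.69, adjusted p 0.0616 to 0.126).

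HSFA6B rose and fell back within 6 h in 9311. In 9311, HSFA6B read 9.02, 9.02 and 8.70 at 0 h, 9.33, 9.32 and 9.40 at 3 h and 8.76, 8.91 and 8.85 at 6 h. In NIL-BPH9, HSFA6B read 9.13, 9.43 and 9.46 at 0 h, 9.44, 9.36 and 9.22 at 3 h and 9.29, 9.29 and 9.26 at 6 h. The 3 arrays of 9311 at 3 h were above all others of that line and within the range of NIL-BPH9. HSFA6B rose at 3 h in 9311 (0.44 ± 0.10 on the log2 scale, 1.35-fold, adjusted p = 0.00573) and fell back by 6 h (-0.51 ± 0.10 on the log2 scale, 1.43-fold, adjusted p = 0.00416). It was higher in NIL-BPH9 at 0 h (0.42 ± 0.10 on the log2 scale, 1.34-fold, adjusted p = 0.00769) and 6 h (0.44 ± 0.10 on the log2 scale, 1.36-fold, adjusted p = 0.00737). The difference between the lines in the 3 h response missed the threshold (-0.44 ± 0.14, adjusted p = 0.0613).

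HSFA2C showed the largest called change of the class. In 9311, HSFA2C read 8.34, 8.35 and 8.06 at 0 h, 9.09, 9.35 and 9.26 at 3 h and 8.65, 8.75 and 8.82 at 6 h. In NIL-BPH9, HSFA2C read 9.06, 9.04 and 8.91 at 0 h, 9.38, 9.21 and 9.10 at 3 h and 8.71, 8.79 and 8.77 at 6 h. The 9311 arrays at 0 h were the lowest of the 18, and at 3 h the lines overlapped. HSFA2C rose in 9311 at 3 h (0.98 ± 0.10 on the log2 scale, 1.97-fold, adjusted p = 2.15e-06) and was still higher at 6 h (0.49 ± 0.10 on the log2 scale, 1.41-fold, adjusted p = 0.00504). From 3 h to 6 h it fell in 9311 (-0.49 ± 0.10 on the log2 scale, 1.41-fold, adjusted p = 0.00654) and in NIL-BPH9 (-0.47 ± 0.10 on the log2 scale, 1.39-fold, adjusted p = 0.00345). NIL-BPH9 was higher at 0 h (0.76 ± 0.10 on the log2 scale, 1.69-fold, adjusted p = 4.57e-05), and its response was smaller than that of 9311 at 3 h (-0.76 ± 0.15 on the log2 scale, 1.69-fold, adjusted p = 0.00204) and 6 h (-0.74 ± 0.15 on the log2 scale, 1.67-fold, adjusted p = 0.00474). The entry of HSFA2C in the gene table also carries names of acireductone dioxygenase, an enzyme that recycles methionine, and the tables do not settle which transcript its brightest probe set detects. A second, dimmer probe set of the entry was called in no comparison: in 9311 it read 7.61, 7.18 and 6.88 at 0 h and 7.49, 6.63 and 7.16 at 3 h. With the mean of both probe sets the 6 h rise in 9311 was 0.13 (adjusted p = 0.677). The line differences in the response were then -0.48 at 3 h (adjusted p = 0.126) and -0.46 at 6 h (adjusted p = 0.164), and none of these was called.

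HSFA2D has the same double naming. In 9311, HSFA2D read 11.92, 11.95 and 12.00 at 0 h, 12.12, 12.25 and 12.18 at 3 h and 12.21, 12.17 and 12.14 at 6 h. In NIL-BPH9, HSFA2D read 12.35, 12.22 and 12.24 at 0 h, 12.20, 12.19 and 12.04 at 3 h and 12.24, 12.21 and 12.17 at 6 h. It rose slightly in 9311 at 3 h (0.23 ± 0.055 on the log2 scale, 1.17-fold, adjusted p = 0.0065) and 6 h (0.22 ± 0.055 on the log2 scale, 1.16-fold, adjusted p = 0.0165), and NIL-BPH9 was higher at 0 h (0.31 ± 0.055 on the log2 scale, 1.24-fold, adjusted p = 0.000527). The 6 h rise was no longer called without 9311 0 h replicate 1 or 2 or 9311 6 h replicate 1 (log2 0.20 to 0.22, adjusted p 0.0522 to 0.0731). Its response was smaller in NIL-BPH9 at 3 h (-0.35 ± 0.077 on the log2 scale, 1.28-fold, adjusted p = 0.00523) and 6 h (-0.28 ± 0.077 on the log2 scale, 1.21-fold, adjusted p = 0.0345). The 6 h difference was lost without 9311 0 h replicate 2 or 9311 6 h replicate 1 or 2 or NIL-BPH9 0 h replicate 1 or 3 or NIL-BPH9 6 h replicate 2 or 3 (log2 -0.30 to -0.24, adjusted p 0.0512 to 0.083), and under 5 of 9 other settings, down to -0.16 (adjusted p = 0.588) with the mean of its probe sets. The second probe set of HSFA2D was called in no comparison either.

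HSFA2E fell at 3 h in NIL-BPH9 (-0.26 ± 0.062 on the log2 scale, 1.2-fold, adjusted p = 0.0068) and rose again by 6 h (0.21 ± 0.062 on the log2 scale, 1.16-fold, adjusted p = 0.0254), the latter not being called without NIL-BPH9 3 h replicate 1, 2 or 3 or NIL-BPH9 6 h replicate 1 or 3 (log2 0.19 to 0.23, adjusted p 0.0517 to 0.102). Its 3 h response was more negative than that in 9311 (-0.32 ± 0.088 on the log2 scale, 1.24-fold, adjusted p = 0.0261), a call lost without 9311 0 h replicate 2 or 9311 3 h replicate 2 or 3 or NIL-BPH9 0 h replicate 1 or 2 or NIL-BPH9 3 h replicate 1 or 3 (log2 -0.32 to -0.28, adjusted p 0.0501 to 0.0731) and under 2 of 9 other settings. HSFA2B was the single member called lower in NIL-BPH9 than in 9311 at 6 h (-0.48 ± 0.13 on the log2 scale, 1.4-fold, adjusted p = 0.0175), and it was lower at 0 h too (-0.44 ± 0.13 on the log2 scale, 1.35-fold, adjusted p = 0.0262). In 9311, HSFA2B read 8.14, 8.30 and 8.21 at 0 h, 7.95, 8.11 and 8.20 at 3 h and 7.93, 8.06 and 7.85 at 6 h. In NIL-BPH9, HSFA2B read 7.69, 7.70 and 7.94 at 0 h, 7.88, 8.0 and 7.85 at 3 h and 7.41, 7.66 and 7.32 at 6 h. Every NIL-BPH9 array at 0 h and 6 h lay below the 9311 arrays of the same time. The 6 h difference was not called without 9311 6 h replicate 2 or NIL-BPH9 6 h replicate 1 or 3 (log2 -0.46 to -0.41, adjusted p 0.0624 to 0.0852), nor the 0 h difference without 9311 0 h replicate 2 or 3 or NIL-BPH9 0 h replicate 1 or 2 (log2 -0.44 to -0.39, adjusted p 0.0509 to 0.0959). From 3 h to 6 h HSFA2B fell in NIL-BPH9 (-0.45 ± 0.13 on the log2 scale, 1.36-fold, adjusted p = 0.0224), a call lost without NIL-BPH9 3 h replicate 1 or 2 or NIL-BPH9 6 h replicate 1 or 3 (log2 -0.46 to -0.37, adjusted p 0.0513 to 0.102).

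HSFA1, HSFA4B, HSFA5, HSFA9 and HSFA2A were called in none of the 9 comparisons. HSFA1, the class that in Arabidopsis and tomato starts the heat response, varied between 9.93 and 10.39 over the 18 arrays, and its largest difference between groups was 0.15 on the log2 scale. HSFA4B ranged from 9.55 to 9.88, HSFA5 from 9.0 to 9.34 and HSFA9 from 8.29 to 9.37. HSFA2A reached the array median on only 3 arrays and ranged from 0.00 to 5.63, so its differences, up to 2.39 on the log2 scale, lay in the range of background signal.

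Of the class B factors, 3 of 5 were lower and 0 higher at 3 h in 9311, against 7.22% of all probe sets and 10.4% of the brightest called lower. At 6 h against 0 h 3 of 5 were lower, against 3.33% and 4.73%, but none of these 3 was called when only the arrays compared were fitted (adjusted p = 0.0574 for HSFB4B, 0.192 for HSFB2A and 0.127 for HSFB2C). From 3 h to 6 h 0 of 5 were called in 9311 (limma). The median log2 change of the 5 was -0.58 at 3 h and -0.34 at 6 h, against 0.00 and -0.02 over all tested probe sets. In NIL-BPH9 1 of 5 was higher and 1 lower at 3 h, against 11.2% and 8.66% of the brightest, and 1 was lower at 6 h, against 12.9%.

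HSFB4B fell most. In 9311, HSFB4B read 9.63, 9.94 and 9.93 at 0 h, 8.94, 8.97 and 9.13 at 3 h and 9.29, 9.08 and 9.44 at 6 h. In NIL-BPH9, HSFB4B read 8.99, 9.28 and 9.29 at 0 h, 9.27, 9.06 and 9.12 at 3 h and 9.40, 9.37 and 9.21 at 6 h. The 3 arrays of 9311 at 0 h lay above the other 15. HSFB4B fell in 9311 at 3 h (-0.82 ± 0.11 on the log2 scale, 1.76-fold, adjusted p = 4.46e-05) and 6 h (-0.56 ± 0.11 on the log2 scale, 1.48-fold, adjusted p = 0.00345), and NIL-BPH9 was already lower at 0 h (-0.65 ± 0.11 on the log2 scale, 1.57-fold, adjusted p = 0.000539). Its response differed between the lines at 3 h (0.78 ± 0.16 on the log2 scale, 1.72-fold, adjusted p = 0.00307) and 6 h (0.70 ± 0.16 on the log2 scale, 1.63-fold, adjusted p = 0.0123). This probe set carries the suffix _x_at, which marks probes that may also bind other transcripts, and a second probe set of HSFB4B was called in no comparison.

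HSFB2A fell in both lines. In 9311, HSFB2A read 9.25, 9.11 and 9.05 at 0 h, 8.63, 8.46 and 8.57 at 3 h and 8.76, 8.71 and 8.93 at 6 h. In NIL-BPH9, HSFB2A read 9.30, 9.21 and 9.20 at 0 h, 9.03, 8.82 and 8.91 at 3 h and 8.94, 8.95 and 9.0 at 6 h. All infested arrays lay below the 0 h arrays of their line. The fall in 9311 was -0.58 ± 0.090 on the log2 scale, 1.5-fold, adjusted p = 0.000149, at 3 h, and -0.34 ± 0.090 on the log2 scale, 1.26-fold, adjusted p = 0.0249, at 6 h. In NIL-BPH9 it was -0.32 ± 0.090 on the log2 scale, 1.25-fold, adjusted p = 0.0223, at 3 h, and -0.27 ± 0.090 on the log2 scale, 1.21-fold, adjusted p = 0.0403, at 6 h. The responses were not shown to differ between the lines (0.26 ± 0.13, adjusted p = 0.221 at 3 h), while the level at 3 h was higher in NIL-BPH9 (0.36 ± 0.090 on the log2 scale, 1.29-fold, adjusted p = 0.0155). Several of these calls were fragile. The 6 h fall in 9311 was lost without 9311 0 h replicate 1 or 2 or 9311 6 h replicate 1 or 2 (log2 -0.35 to -0.28, adjusted p 0.0603 to 0.108). In NIL-BPH9 the 3 h fall was lost without NIL-BPH9 0 h replicate 1 or NIL-BPH9 3 h replicate 2 or 3 (log2 -0.31 to -0.27, adjusted p 0.0661 to 0.107) and the 6 h fall without NIL-BPH9 0 h replicate 1, 2 or 3 or NIL-BPH9 6 h replicate 1, 2 or 3 (log2 -0.29 to -0.24, adjusted p 0.0693 to 0.115). The level difference was lost without 9311 3 h replicate 2 or NIL-BPH9 3 h replicate 1 (log2 0.31 to 0.32, adjusted p 0.0827 to 0.0949).

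HSFB2C fell in 9311. In 9311, HSFB2C read 8.41, 8.42 and 8.69 at 0 h, 7.99, 7.94 and 8.01 at 3 h and 8.05, 7.78 and 8.12 at 6 h. In NIL-BPH9, HSFB2C read 8.42, 8.53 and 8.49 at 0 h, 8.50, 8.32 and 8.21 at 3 h and 8.30, 8.55 and 8.27 at 6 h. In 9311 every infested array lay below every 0 h array, whereas the NIL-BPH9 groups overlapped. The fall in 9311 was -0.53 ± 0.12 on the log2 scale, 1.44-fold, adjusted p = 0.00536, at 3 h, and -0.53 ± 0.12 on the log2 scale, 1.44-fold, adjusted p = 0.00988, at 6 h, the latter lost without 9311 6 h replicate 2 (log2 -0.43, adjusted p = 0.0638). This 6 h fall was also lost with each array centred on its median, with only the arrays compared and with the mean of the gene's probe sets. NIL-BPH9 was higher at 6 h (0.39 ± 0.12 on the log2 scale, 1.31-fold, adjusted p = 0.0454), a call lost without 9311 6 h replicate 1 or 2 or NIL-BPH9 6 h replicate 1, 2 or 3 (log2 0.29 to 0.44, adjusted p 0.0562 to 0.215). The responses were not shown to differ (0.39 ± 0.17, adjusted p = 0.172 at 3 h; 0.42 ± 0.17, adjusted p = 0.154 at 6 h). A second probe set of HSFB2C fell at 3 h in 9311 (-0.78 ± 0.17 on the log2 scale, 1.72-fold, adjusted p = 0.00257) and also in NIL-BPH9 (-0.59 ± 0.17 on the log2 scale, 1.5-fold, adjusted p = 0.0212).

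HSFB1 went the other way. In 9311, HSFB1 read 8.87, 9.12 and 8.89 at 0 h, 9.32, 8.94 and 9.11 at 3 h and 8.88, 9.34 and 9.27 at 6 h. In NIL-BPH9, HSFB1 read 9.42, 8.97 and 9.37 at 0 h, 9.81, 9.61 and 9.71 at 3 h and 9.58, 9.64 and 9.63 at 6 h. After infestation all NIL-BPH9 arrays lay above all 9311 arrays. HSFB1 rose at 3 h in NIL-BPH9 (0.46 ± 0.13 on the log2 scale, 1.37-fold, adjusted p = 0.0263), and the 6 h value missed the threshold (0.37 ± 0.13, adjusted p = 0.0623). It was higher in NIL-BPH9 than in 9311 at 3 h (0.58 ± 0.13 on the log2 scale, 1.5-fold, adjusted p = 0.00811) and 6 h (0.46 ± 0.13 on the log2 scale, 1.37-fold, adjusted p = 0.0311). The means at 0 h were 9.25 in NIL-BPH9 and 8.96 in 9311, and the responses were not shown to differ between the lines. The rise was not called without NIL-BPH9 0 h replicate 2 or NIL-BPH9 3 h replicate 1 or 3 (log2 0.31 to 0.46, adjusted p 0.0685 to 0.144). The line differences were not called without 9311 3 h replicate 2 (log2 0.49, adjusted p = 0.057), at 3 h, or without 9311 6 h replicate 1 or NIL-BPH9 6 h replicate 1, 2 or 3 (log2 0.31 to 0.47, adjusted p 0.0678 to 0.171), at 6 h. HSFB2B, a negative regulator of drought and salt tolerance in rice, ranged from 6.29 to 7.74 and was called nowhere (-0.61 ± 0.28 at 3 h in 9311, adjusted p = 0.173).

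Of the class C factors HSFC1B, which has a role in the salt tolerance of rice, was called. In 9311, HSFC1B read 10.74, 10.74 and 11.08 at 0 h, 10.80, 10.73 and 10.80 at 3 h and 10.70, 10.74 and 10.78 at 6 h. In NIL-BPH9, HSFC1B read 11.12, 11.02 and 10.92 at 0 h, 10.78, 10.75 and 10.79 at 3 h and 11.13, 11.25 and 11.14 at 6 h. At 6 h all NIL-BPH9 arrays lay above all 9311 arrays. In NIL-BPH9 HSFC1B fell at 3 h (-0.25 ± 0.078 on the log2 scale, 1.19-fold, adjusted p = 0.0408) and rose by 6 h (0.40 ± 0.078 on the log2 scale, 1.32-fold, adjusted p = 0.00134), and at 6 h it was higher than in 9311 (0.43 ± 0.078 on the log2 scale, 1.35-fold, adjusted p = 0.000938). The fall was not called without NIL-BPH9 0 h replicate 1 or 2 or NIL-BPH9 3 h replicate 1, 2 or 3 (log2 -0.26 to -0.20, adjusted p 0.0838 to 0.16). Neither the 3 h nor the 6 h response of HSFC1B was shown to differ between the lines. HSFC1A (6.56 to 7.79) and HSFC2A (6.94 to 8.0) passed in no comparison.

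**Figure D2:**
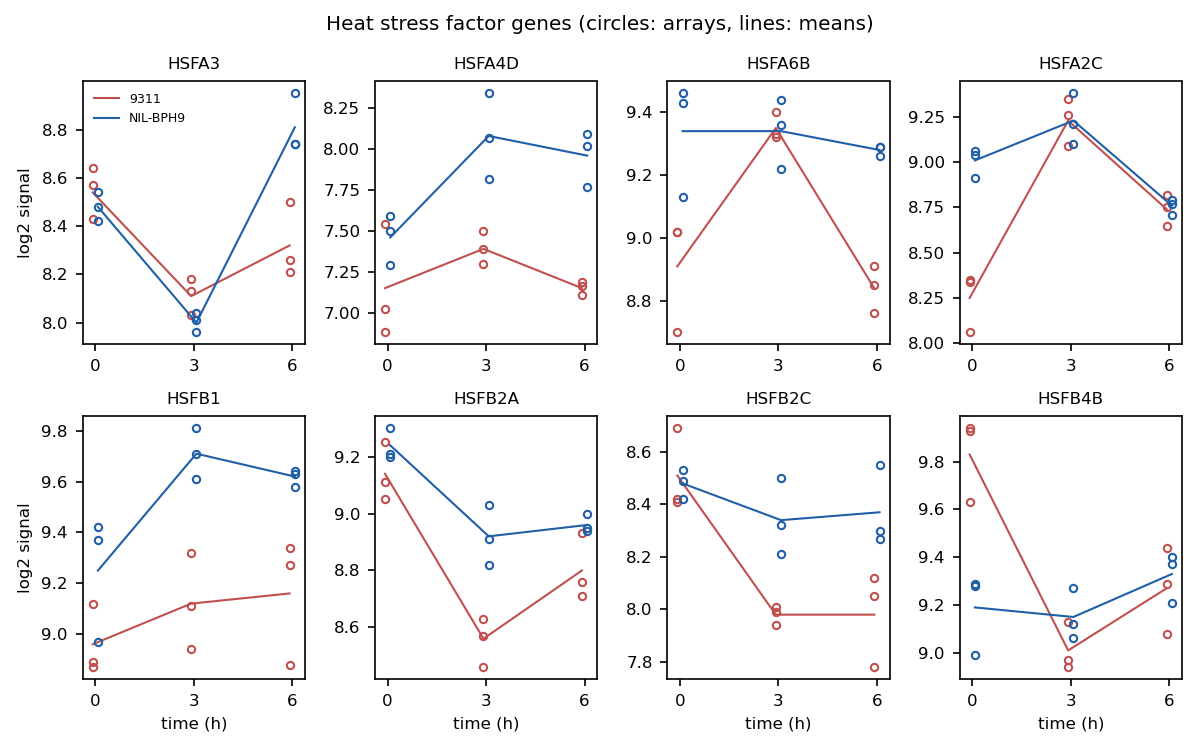
Log2 signal of 8 heat stress factor genes against time (h), with a circle for each array, a line through the group means, red for 9311 and blue for NIL-BPH9; the vertical axes differ between panels and do not start at 0. HSFA4D and HSFB1 lie higher in NIL-BPH9 at 3 h and 6 h, and HSFB2A, HSFB2C and HSFB4B drop in 9311 at 3 h.

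The small heat shock protein genes, named by their size in kilodaltons, differed between the lines in their counts of calls at 6 h, and the difference itself was tested gene by gene. At 6 h against 0 h 7 of 17 were higher in NIL-BPH9 and 0 lower, against 8.28% of all probe sets and 12.3% of the brightest called higher. The median log2 change was 0.27, against -0.05 over all tested probe sets, with 10 of the 17 changes positive and 7 negative. In 9311 0 of 17 passed at 6 h by limma (3 at an unadjusted p under 0.05), with a median of 0.00. The 7 were HSP17.4, HSP17.7, HSP17.9B, HSP18.8, HSP22.3, HSP24.1 and HSP26.2, and the difference between the lines itself passed for HSP17.7, HSP24.1 and HSP26.2. Over all 17 the 6 h response was more positive in NIL-BPH9 for 9 genes and more negative for 8. The median line difference was 0.13, against -0.03 over all tested probe sets, so the counts of calls do not show a line difference of the family. At 3 h against 0 h 2 of 17 were higher and 3 lower in 9311, against 11.4% and 10.4% of the brightest. In NIL-BPH9 4 were higher and 2 lower, against 11.2% and 8.66%. The LHCP signal given above was also higher in NIL-BPH9 at 6 h than at 0 h (0.35 on the log2 scale), and its part in these counts was not tested.

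HSP26.2 had the largest called change of all members. Its only probe set carries the suffix _s_at, which marks probes shared by several transcripts. In 9311, HSP26.2 read 9.05, 8.93 and 9.29 at 0 h, 8.39, 8.39 and 8.39 at 3 h and 9.03, 9.16 and 8.96 at 6 h. In NIL-BPH9, HSP26.2 read 9.11, 8.88 and 8.80 at 0 h, 8.72, 8.64 and 8.33 at 3 h and 9.65, 9.70 and 9.43 at 6 h. In each line the 3 h arrays lay below all others, and the NIL-BPH9 arrays at 6 h lay above every other array. HSP26.2 fell at 3 h in 9311 (-0.70 ± 0.12 on the log2 scale, 1.62-fold, adjusted p = 0.000408) and in NIL-BPH9 (-0.37 ± 0.12 on the log2 scale, 1.29-fold, adjusted p = 0.0493). From 3 h to 6 h it rose in 9311 (0.66 ± 0.12 on the log2 scale, 1.58-fold, adjusted p = 0.00182) and in NIL-BPH9 (1.03 ± 0.12 on the log2 scale, 2.04-fold, adjusted p = 4.99e-06). In NIL-BPH9 the 6 h level exceeded that at 0 h (0.66 ± 0.12 on the log2 scale, 1.58-fold, adjusted p = 0.00082) and that of 9311 (0.54 ± 0.12 on the log2 scale, 1.46-fold, adjusted p = 0.00515), and the lines differed in the 6 h response (0.70 ± 0.17 on the log2 scale, 1.62-fold, adjusted p = 0.018). The 3 h fall in NIL-BPH9 was not called without NIL-BPH9 0 h replicate 1 or 2 or NIL-BPH9 3 h replicate 2 or 3 (log2 -0.40 to -0.25, adjusted p 0.0728 to 0.239), nor the line difference without NIL-BPH9 0 h replicate 3 or NIL-BPH9 6 h replicate 2 (log2 0.63 to 0.65, adjusted p 0.0511 to 0.0518).

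HSP17.9A dipped in the same way. In 9311, HSP17.9A read 12.01, 11.95 and 12.27 at 0 h, 11.67, 11.67 and 11.68 at 3 h and 12.31, 12.19 and 12.31 at 6 h. In NIL-BPH9, HSP17.9A read 12.50, 12.45 and 12.31 at 0 h, 11.70, 11.68 and 11.67 at 3 h and 12.36, 12.35 and 12.33 at 6 h. The 6 arrays at 3 h, from 11.67 to 11.70, were nearly alike and lay below the other 12. HSP17.9A fell at 3 h in 9311 (-0.40 ± 0.068 on the log2 scale, 1.32-fold, adjusted p = 0.000353) and more in NIL-BPH9 (-0.73 ± 0.068 on the log2 scale, 1.66-fold, adjusted p = 3.56e-07), which started higher (0.34 ± 0.068 on the log2 scale, 1.27-fold, adjusted p = 0.00177). It rose from 3 h to 6 h in 9311 (0.60 ± 0.068 on the log2 scale, 1.51-fold, adjusted p = 1.10e-05) and in NIL-BPH9 (0.66 ± 0.068 on the log2 scale, 1.58-fold, adjusted p = 9.79e-07), and at 6 h neither line differed from its 0 h level by the test. The line difference at 3 h (-0.33 ± 0.10 on the log2 scale, 1.26-fold, adjusted p = 0.0343) was lost without 9311 0 h replicate 1 or 2 or 9311 3 h replicate 1, 2 or 3 or NIL-BPH9 0 h replicate 1 or 2 or NIL-BPH9 3 h replicate 1, 2 or 3 (log2 -0.34 to -0.27, adjusted p 0.0595 to 0.0925).

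HSP22.3 rose in both lines. In 9311, HSP22.3 read 6.90, 6.61 and 7.07 at 0 h, 7.72, 7.79 and 7.66 at 3 h and 7.34, 7.77 and 7.32 at 6 h. In NIL-BPH9, HSP22.3 read 6.82, 6.75 and 7.05 at 0 h, 7.94, 7.23 and 7.35 at 3 h and 7.38, 7.94 and 7.80 at 6 h. Every infested array lay above every 0 h array. The rise at 3 h was 0.86 ± 0.20 on the log2 scale, 1.82-fold, adjusted p = 0.00647, in 9311, and 0.63 ± 0.20 on the log2 scale, 1.55-fold, adjusted p = 0.0459, in NIL-BPH9. At 6 h it was 0.83 ± 0.20 on the log2 scale, 1.78-fold, adjusted p = 0.00868, in NIL-BPH9, while the 6 h value in 9311 missed the threshold (0.61 ± 0.20, adjusted p = 0.0785). The responses were not shown to differ between the lines (-0.23 ± 0.29, adjusted p = 0.695 at 3 h; 0.22 ± 0.29, adjusted p = 0.728 at 6 h). The 3 h rise in NIL-BPH9 was not called without NIL-BPH9 0 h replicate 1, 2 or 3 or NIL-BPH9 3 h replicate 1 or 3 (log2 0.42 to 0.72, adjusted p 0.0559 to 0.251).

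HSP17.4 was called in a single comparison, and its responses were not shown to differ between the lines. In 9311, HSP17.4 read 6.93, 6.79 and 7.23 at 0 h, 6.35, 6.65 and 6.42 at 3 h and 6.76, 7.08 and 7.06 at 6 h. In NIL-BPH9, HSP17.4 read 6.21, 6.66 and 6.82 at 0 h, 6.50, 6.83 and 6.69 at 3 h and 7.31, 7.33 and 7.13 at 6 h. In NIL-BPH9 all 6 h arrays lay above the others of the line. The rise at 6 h over 0 h in NIL-BPH9 was 0.69 ± 0.20 on the log2 scale, 1.62-fold, adjusted p = 0.0231, and it was not called without NIL-BPH9 0 h replicate 1 or NIL-BPH9 6 h replicate 1 or 2 (log2 0.51 to 0.66, adjusted p 0.0662 to 0.105). HSP17.4, HSP18.1 and HSP17.7 are neighbours on chromosome 3 of the RefSeq gene table. HSP17.7 rose in NIL-BPH9 at 3 h (0.39 ± 0.11 on the log2 scale, 1.31-fold, adjusted p = 0.0252) and 6 h (0.48 ± 0.11 on the log2 scale, 1.4-fold, adjusted p = 0.00549) from a lower start (-0.55 ± 0.11 on the log2 scale, 1.47-fold, adjusted p = 0.00198). In 9311, HSP17.7 read 10.35, 10.40 and 10.80 at 0 h, 10.50, 10.30 and 10.26 at 3 h and 10.24, 10.68 and 10.43 at 6 h. In NIL-BPH9, HSP17.7 read 9.86, 10.05 and 9.97 at 0 h, 10.41, 10.35 and 10.29 at 3 h and 10.39, 10.44 and 10.51 at 6 h. The lines were apart at 0 h and overlapped at 3 h and 6 h. The 3 h rise of HSP17.7 was not called without NIL-BPH9 0 h replicate 1 or 3 or NIL-BPH9 3 h replicate 1 or 2 (log2 0.34 to 0.39, adjusted p 0.0628 to 0.0954). Its line differences were lost without 9311 0 h replicate 3 or 9311 3 h replicate 2 or 3 or NIL-BPH9 0 h replicate 1 or 3 or NIL-BPH9 3 h replicate 1 or 2 (log2 0.41 to 0.55, adjusted p 0.0551 to 0.0808), at 3 h, and without 9311 0 h replicate 3 or 9311 6 h replicate 1 or 3 or NIL-BPH9 0 h replicate 1 or 3 or NIL-BPH9 6 h replicate 1, 2 or 3 (log2 0.41 to 0.58, adjusted p 0.0611 to 0.11), at 6 h. HSP18.1 was called nowhere and ranged from 3.83 to 6.61.

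HSP24.1 separated the lines after infestation. In 9311, HSP24.1 read 9.97, 10.06 and 9.96 at 0 h, 9.80, 9.49 and 9.75 at 3 h and 10.04, 9.76 and 10.16 at 6 h. In NIL-BPH9, HSP24.1 read 10.05, 9.88 and 9.88 at 0 h, 10.25, 10.15 and 9.97 at 3 h and 10.51, 10.39 and 10.40 at 6 h. At 0 h the lines overlapped, and at 3 h and 6 h all NIL-BPH9 arrays lay above the 9311 arrays of the same time. HSP24.1 fell at 3 h in 9311 (-0.32 ± 0.10 on the log2 scale, 1.25-fold, adjusted p = 0.0422) and rose by 6 h in NIL-BPH9 (0.50 ± 0.10 on the log2 scale, 1.41-fold, adjusted p = 0.00237). NIL-BPH9 was higher at 3 h (0.44 ± 0.10 on the log2 scale, 1.36-fold, adjusted p = 0.00904) and 6 h (0.45 ± 0.10 on the log2 scale, 1.36-fold, adjusted p = 0.0067). It was also higher at 6 h than at 3 h in NIL-BPH9 (0.31 ± 0.10 on the log2 scale, 1.24-fold, adjusted p = 0.04999), a call lost without NIL-BPH9 3 h replicate 2 or 3 or NIL-BPH9 6 h replicate 1, 2 or 3 (log2 0.23 to 0.33, adjusted p 0.0841 to 0.217). The lines differed in the response at 3 h (0.51 ± 0.14 on the log2 scale, 1.42-fold, adjusted p = 0.0295) and 6 h (0.51 ± 0.14 on the log2 scale, 1.42-fold, adjusted p = 0.0394). The fall in 9311 was not called without 9311 0 h replicate 1, 2 or 3 or 9311 3 h replicate 2 or 3 (log2 -0.35 to -0.22, adjusted p 0.0546 to 0.222). The line differences in level were lost without 9311 3 h replicate 2 or NIL-BPH9 3 h replicate 1 (log2 0.35 to 0.38, adjusted p 0.0612 to 0.0683), at 3 h, and without 9311 6 h replicate 2 (log2 0.33, adjusted p = 0.0521), at 6 h. Those in the response were lost without 9311 0 h replicate 2 or 9311 3 h replicate 2 or NIL-BPH9 0 h replicate 2 or 3 or NIL-BPH9 3 h replicate 1 or 2 (log2 0.41 to 0.50, adjusted p 0.0638 to 0.09), at 3 h, and without 9311 0 h replicate 2 or 9311 6 h replicate 1 or 2 or NIL-BPH9 0 h replicate 2 or 3 or NIL-BPH9 6 h replicate 1, 2 or 3 (log2 0.39 to 0.54, adjusted p 0.0571 to 0.11), at 6 h.

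HSP17.9B was higher in NIL-BPH9 after infestation. In 9311, HSP17.9B read 12.56, 12.64 and 12.79 at 0 h, 12.85, 12.80 and 12.79 at 3 h and 12.81, 12.79 and 12.84 at 6 h. In NIL-BPH9, HSP17.9B read 12.82, 12.78 and 12.70 at 0 h, 13.19, 13.22 and 13.19 at 3 h and 13.10, 12.99 and 13.04 at 6 h. All 6 infested NIL-BPH9 arrays lay above the other 12. It rose in NIL-BPH9 at 3 h (0.43 ± 0.054 on the log2 scale, 1.35-fold, adjusted p = 1.47e-05) and 6 h (0.28 ± 0.054 on the log2 scale, 1.21-fold, adjusted p = 0.00155), and in 9311 the 3 h value missed the threshold (0.15 ± 0.054, adjusted p = 0.0668). NIL-BPH9 was higher at 3 h (0.38 ± 0.054 on the log2 scale, 1.3-fold, adjusted p = 8.12e-05) and 6 h (0.23 ± 0.054 on the log2 scale, 1.18-fold, adjusted p = 0.00734), and the lines differed in the 3 h response (0.28 ± 0.077 on the log2 scale, 1.21-fold, adjusted p = 0.0244). The last of these was lost without 9311 3 h replicate 2 or 3 or NIL-BPH9 0 h replicate 3 or NIL-BPH9 3 h replicate 2 (log2 0.25 to 0.27, adjusted p 0.0554 to 0.0672). HSP17.9B belongs to a run of 5 members that neighbour each other on chromosome 1, with HSP16.6, HSP16.9C, HSP16.9A and HSP16.9B. HSP16.9A was higher in NIL-BPH9 at 0 h (0.68 ± 0.19 on the log2 scale, 1.6-fold, adjusted p = 0.0181) and 6 h (0.60 ± 0.19 on the log2 scale, 1.52-fold, adjusted p = 0.0421). The former was lost without 9311 0 h replicate 2 or 3 or NIL-BPH9 0 h replicate 1 or 2 (log2 0.63 to 0.67, adjusted p 0.0509 to 0.061) and the latter without 9311 6 h replicate 1 or 2 or NIL-BPH9 6 h replicate 1, 2 or 3 (log2 0.54 to 0.64, adjusted p 0.0812 to 0.14). At 3 h HSP16.9A read 6.88, 7.01 and 7.18 in NIL-BPH9 and 6.73, 6.16 and 6.56 in 9311. These groups were apart in the same direction, but the difference was not called. The gene table lists HSP16.9B as a synonym of HSP16.9A too, so the copies may not be told apart. HSP16.6 (3.17 to 6.46) and HSP16.9B (2.97 to 6.20) were called nowhere, and HSP16.9C had no probe set here.

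HSP18.8 rose at 3 h in 9311 (0.32 ± 0.10 on the log2 scale, 1.25-fold, adjusted p = 0.0301) and in NIL-BPH9 at 3 h (0.33 ± 0.10 on the log2 scale, 1.26-fold, adjusted p = 0.0261) and 6 h (0.28 ± 0.10 on the log2 scale, 1.22-fold, adjusted p = 0.0485). In 9311, HSP18.8 read 12.10, 12.28 and 12.64 at 0 h, 12.75, 12.53 and 12.69 at 3 h and 12.40, 12.23 and 12.43 at 6 h. In NIL-BPH9, HSP18.8 read 12.09, 12.18 and 12.18 at 0 h, 12.49, 12.43 and 12.52 at 3 h and 12.44, 12.49 and 12.37 at 6 h. In NIL-BPH9 all infested arrays lay above the 0 h arrays, and in 9311 the groups overlapped. None of the 3 calls was kept under every omission: the 9311 call was lost without 9311 0 h replicate 1 or 2 or 9311 3 h replicate 1 or 3 (log2 0.20 to 0.30, adjusted p 0.0956 to 0.156), and the NIL-BPH9 calls without NIL-BPH9 0 h replicate 1, 2 or 3 or NIL-BPH9 3 h replicate 1 or 3 (log2 0.30 to 0.35, adjusted p 0.0509 to 0.0877), at 3 h, and without NIL-BPH9 0 h replicate 1, 2 or 3 or NIL-BPH9 6 h replicate 1, 2 or 3 (log2 0.25 to 0.31, adjusted p 0.0669 to 0.145), at 6 h. Its probe set is of the _x_at kind. The other 8 tested small heat shock protein genes passed in none of the 9 comparisons. HSP18.0 ranged from 8.21 to 9.04 and HSP16.0 from 6.51 to 7.93, while HSP17.8 (4.24 to 6.74), HSP18.6 (4.25 to 6.68) and HSP21.9 (2.02 to 5.96) came close to or under the array medians of 5.18 to 5.52. HSP23.2 and HSP26.7 were too dim to test.

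**Figure D3:**
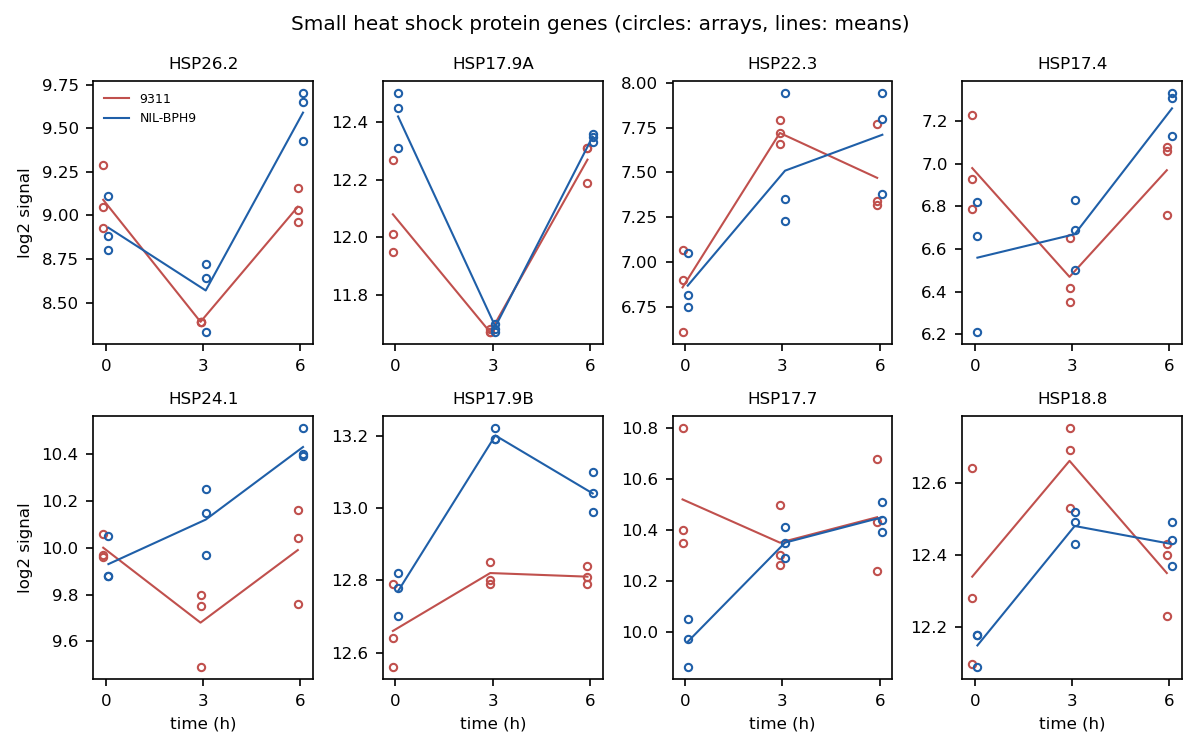
Log2 signal of 8 small heat shock protein genes against time (h), with a circle for each array, a line through the group means, red for 9311 and blue for NIL-BPH9; the vertical axes differ between panels and do not start at 0. HSP26.2 and HSP17.9A dip at 3 h in both lines, HSP22.3 is higher in all infested samples, and HSP24.1 and HSP17.9B are higher in infested NIL-BPH9.

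The HSP90 genes are HSP81-1, HSP81-2 and HSP81-3, cytosolic chaperones that work with the co-chaperones SGT1 and RAR1. In 9311, HSP81-1 read 13.62, 13.66 and 13.88 at 0 h, 13.60, 13.51 and 13.51 at 3 h and 13.36, 13.47 and 13.52 at 6 h. In NIL-BPH9, HSP81-1 read 13.57, 13.76 and 13.57 at 0 h, 13.84, 13.83 and 13.85 at 3 h and 13.80, 13.86 and 13.77 at 6 h. The lines overlapped at 0 h and were apart at 3 h and 6 h. HSP81-1 was lower at 6 h in 9311 (-0.27 ± 0.066 on the log2 scale, 1.21-fold, adjusted p = 0.0134) and higher at 3 h in NIL-BPH9 (0.21 ± 0.066 on the log2 scale, 1.16-fold, adjusted p = 0.0405). NIL-BPH9 was higher than 9311 at 3 h (0.30 ± 0.066 on the log2 scale, 1.23-fold, adjusted p = 0.00643) and 6 h (0.36 ± 0.066 on the log2 scale, 1.28-fold, adjusted p = 0.000962), and the lines differed in the response at 3 h (0.39 ± 0.093 on the log2 scale, 1.31-fold, adjusted p = 0.0102) and 6 h (0.45 ± 0.093 on the log2 scale, 1.37-fold, adjusted p = 0.00638). The fall in 9311 was not called without 9311 6 h replicate 1 (log2 -0.23, adjusted p = 0.0816), nor the 3 h rise in NIL-BPH9 without NIL-BPH9 0 h replicate 1 or 3 or NIL-BPH9 3 h replicate 1, 2 or 3 (log2 0.18 to 0.21, adjusted p 0.0885 to 0.155). A second probe set of HSP81-1 took the opposite course at 6 h in NIL-BPH9, where it fell against 0 h (-0.50 ± 0.13 on the log2 scale, 1.41-fold, adjusted p = 0.0108) and against 3 h (-0.73 ± 0.13 on the log2 scale, 1.65-fold, adjusted p = 0.000466). At 3 h it too was higher in NIL-BPH9 (0.44 ± 0.13 on the log2 scale, 1.35-fold, adjusted p = 0.0406). At 6 h the second probe set read 10.03, 9.52 and 9.57 in NIL-BPH9 and 10.08, 9.82 and 10.15 in 9311. With the mean of the probe sets of HSP81-1, neither 6 h line difference was called. The level differed by 0.03 (adjusted p = 0.882) and the response by 0.09 (adjusted p = 0.689).

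HSP81-2 dipped in NIL-BPH9. In 9311, HSP81-2 read 14.54, 14.64 and 14.76 at 0 h, 14.54, 14.50 and 14.55 at 3 h and 14.66, 14.70 and 14.74 at 6 h. In NIL-BPH9, HSP81-2 read 14.71, 14.84 and 14.77 at 0 h, 14.53, 14.52 and 14.60 at 3 h and 14.82, 14.90 and 14.87 at 6 h. In NIL-BPH9 the 3 h arrays lay below the others. The fall at 3 h was -0.22 ± 0.052 on the log2 scale, 1.17-fold, adjusted p = 0.00646, and the rise from 3 h to 6 h 0.31 ± 0.052 on the log2 scale, 1.24-fold, adjusted p = 0.000269. In 9311 the same differences were not called (-0.12 ± 0.052, adjusted p = 0.17 at 3 h; 0.17 ± 0.052, adjusted p = 0.0739 from 3 h to 6 h). The responses at 3 h and 6 h were not shown to differ between the lines, so the dip was not shown to be particular to NIL-BPH9. The higher level of NIL-BPH9 at 6 h (0.17 ± 0.052 on the log2 scale, 1.12-fold, adjusted p = 0.0458) was lost without 9311 6 h replicate 1, 2 or 3 or NIL-BPH9 6 h replicate 1, 2 or 3 (log2 0.15 to 0.19, adjusted p 0.0583 to 0.157).

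HSP81-3 was called once, for a rise from 3 h to 6 h in 9311 (0.29 ± 0.082 on the log2 scale, 1.22-fold, adjusted p = 0.0487), which was lost without 9311 3 h replicate 1, 2 or 3 or 9311 6 h replicate 2 or 3 (log2 0.23 to 0.31, adjusted p 0.1 to 0.212). In 9311, HSP81-3 read 14.50, 14.39 and 14.66 at 0 h, 14.46, 14.48 and 14.52 at 3 h and 14.68, 14.75 and 14.89 at 6 h. In NIL-BPH9, HSP81-3 read 14.75, 14.51 and 14.43 at 0 h, 14.58, 14.54 and 14.57 at 3 h and 14.70, 14.95 and 14.71 at 6 h. The probe set of HSP81-3 read here is also of the _s_at kind. The next brightest of its 5 probe sets, of the _x_at kind, fell at 3 h in 9311 (-0.17 ± 0.056 on the log2 scale, 1.13-fold, adjusted p = 0.0474) and in NIL-BPH9 (-0.35 ± 0.056 on the log2 scale, 1.28-fold, adjusted p = 0.000224) and rose by 6 h in both (0.20 ± 0.056 on the log2 scale, 1.15-fold, adjusted p = 0.0476, in 9311; 0.49 ± 0.056 on the log2 scale, 1.4-fold, adjusted p = 4.32e-06, in NIL-BPH9). The third brightest probe set of HSP81-3 was lowest at 3 h in both lines too. Its means at 0 h, 3 h and 6 h were 11.95, 11.47 and 11.83 in 9311 and 11.78, 11.60 and 12.02 in NIL-BPH9. HSP81-2 and HSP81-3 share 2 further probe sets that were assigned to several genes, so signal of these neighbours may not be told apart.

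The HSP100 gene matched by the names, CLPB1, also known as hsp101, which frees proteins from aggregates after heat, was called in no comparison. CLPB-C and CLPB-M, which share its name stem, were not matched and belong to the list of chaperone partners below. In 9311, CLPB1 read 8.12, 8.15 and 8.05 at 0 h, 8.24, 8.31 and 8.36 at 3 h and 8.33, 8.02 and 8.38 at 6 h. In NIL-BPH9, CLPB1 read 8.37, 8.19 and 7.97 at 0 h, 8.10, 8.43 and 8.14 at 3 h and 8.05, 7.91 and 7.83 at 6 h. The groups of the lines overlapped at all 3 times. Its largest difference was at 6 h between the lines (-0.31 ± 0.13, adjusted p = 0.147).

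**Figure D4:**
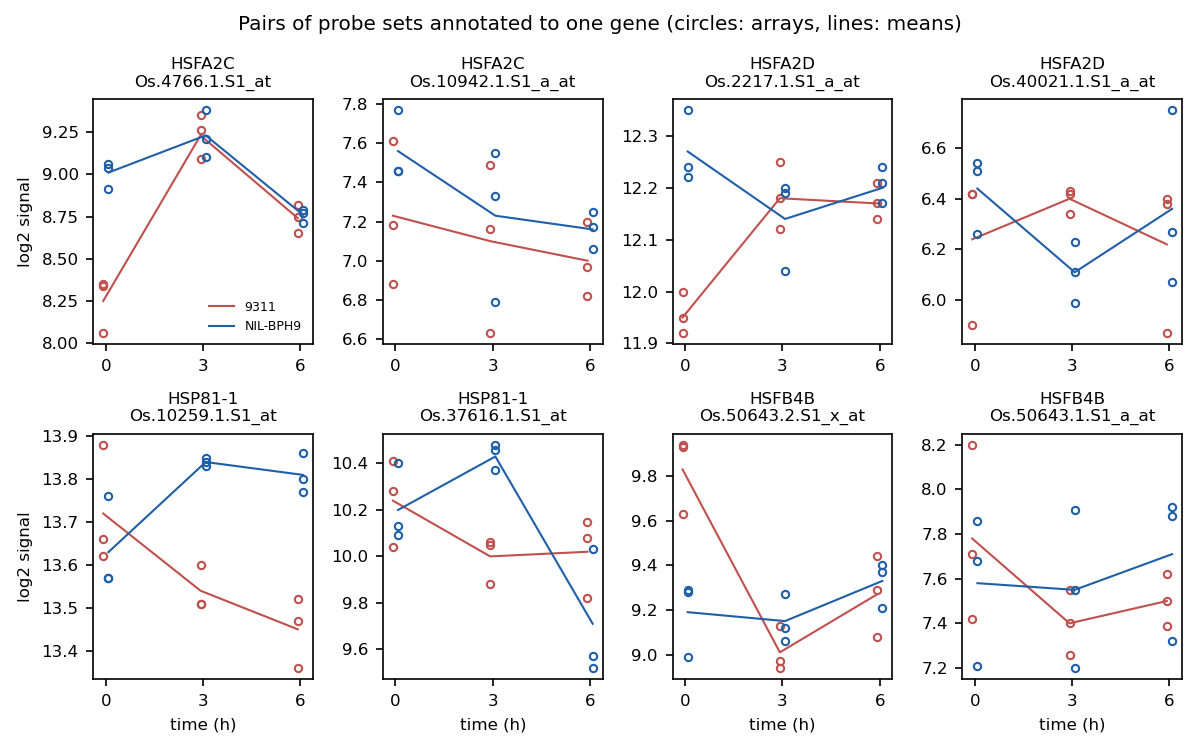
Log2 signal against time (h) for pairs of probe sets annotated to the same gene (HSFA2C, HSFA2D, HSP81-1 and HSFB4B), with a circle for each array, a line through the group means, red for 9311 and blue for NIL-BPH9; the vertical axes differ between panels and do not start at 0. At 6 h in NIL-BPH9 the first probe set of HSP81-1 stays high while the second drops, and the 9311 courses of HSFA2C differ between its probe sets.

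Of the 12 members called at 3 h in 9311 and the 14 called in NIL-BPH9, 6 were shared with the same direction (50% and 42.9%): HSP17.9A, HSP18.8, HSP22.3, HSP26.2, HSFA3 and HSFB2A. At 6 h against 0 h 1 was shared, HSFB2A (16.7% of 6 and 11.1% of 9). From 3 h to 6 h 3 were shared, HSP17.9A, HSP26.2 and HSFA2C (60.0% of 5 and 33.3% of 9). How many calls were shared over all tested probe sets was not computed, so these shared counts have no background beside them. Over all 41 tested members 26 had the same sign in both lines at 3 h and 19 at 6 h, against 54.1% and 56.6% of all tested probe sets. The correlation of the members' changes between the lines was 0.04 at 3 h and -0.06 at 6 h, against 0.12 and 0.17 over all tested probe sets.

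The response itself, in which the clock genes and LHCP also differed as given above, differed between the lines for 9 members (22.0%) at 3 h, against 10.5% of all probe sets (5.80% more positive and 4.72% more negative) and 15.5% of the brightest. At 6 h it differed for 8 (19.5%), against 7.03% (3.83% and 3.19%) and 10.2%. At 3 h 5 were more positive in NIL-BPH9 (HSP17.7, HSP17.9B, HSP24.1, HSP81-1 and HSFB4B) and 4 more negative (HSP17.9A, HSFA2C, HSFA2D and HSFA2E). At 6 h 6 were more positive (HSP17.7, HSP24.1, HSP26.2, HSP81-1, HSFA3 and HSFB4B) and 2 more negative (HSFA2C and HSFA2D). The entries of HSFA2C and HSFA2D also carry names of acireductone dioxygenase, so these may not be calls of heat stress factors. The 3 h count was 4 without 9311 3 h replicate 2 and 5 without 9311 3 h replicate 3 or NIL-BPH9 3 h replicate 1 or 2. The 6 h count was 3 without NIL-BPH9 0 h replicate 3, 4 without 9311 6 h replicate 1 or NIL-BPH9 6 h replicate 2 or 3, and 5 without 9311 0 h replicate 2 or NIL-BPH9 0 h replicate 1.

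**Figure D5:**
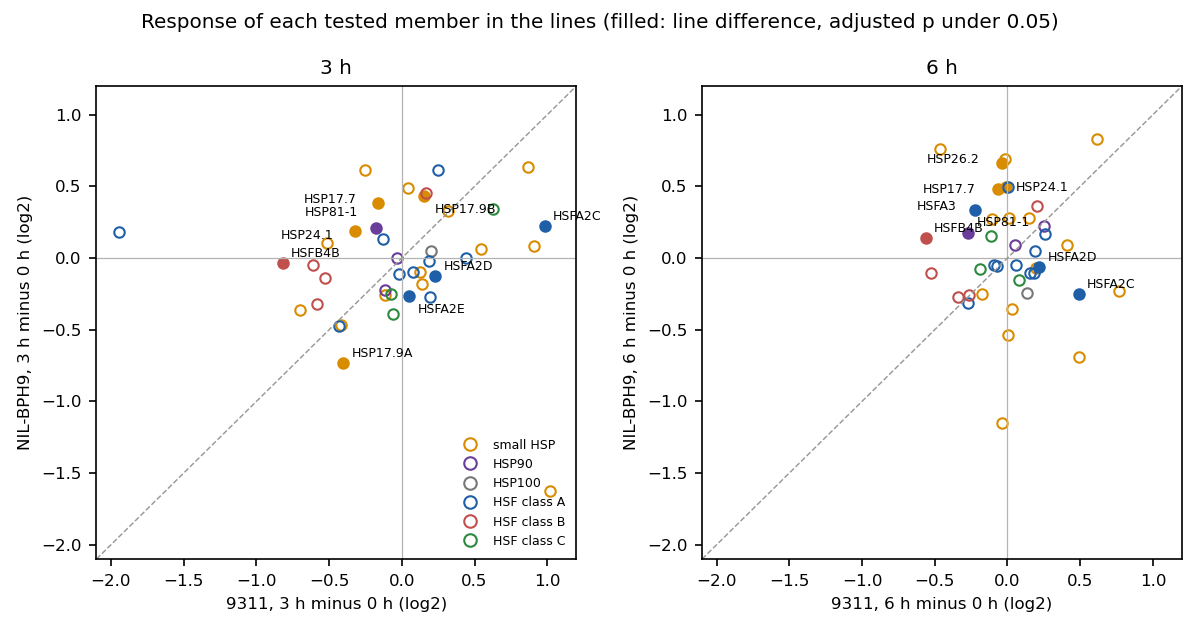
Log2 change over 0 h in NIL-BPH9 (vertical axis) against that in 9311 (horizontal axis) for each of the 41 tested genes at 3 h and 6 h, coloured by family, with the dashed line marking equal changes. Filled and named points, 9 at 3 h and 8 at 6 h, are those whose response differed between the lines.

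Chaperone partners and heat response genes outside the members were read as a separate list. It includes CLPB, CLPC and BIP genes, chaperones that the name rule did not match. Of its 28 tested genes, 0 were higher and 4 lower at 3 h in 9311, against 2 and 2 in NIL-BPH9. At 6 h against 0 h 0 were higher and 1 lower in 9311, and 4 higher and 4 lower in NIL-BPH9. Over all probe sets 7.61% were called higher and 7.22% lower in 9311 at 3 h, and 7.61% and 6.47% in NIL-BPH9. At 6 h it was 4.29% and 3.33% in 9311, and 8.28% and 10.4% in NIL-BPH9. Of the brightest per gene, by which this list was read too, 11.4% were higher and 10.4% lower in 9311 at 3 h, and 11.2% and 8.66% in NIL-BPH9. At 6 h it was 6.46% and 4.73% in 9311, and 12.3% and 12.9% in NIL-BPH9. The list's counts in NIL-BPH9 at 6 h were thus near the background. The median log2 change of the list lay between -0.09 and 0.02 in these 4 responses, against -0.05 to 0.00 over all tested probe sets. The 4 that were higher at 6 h in NIL-BPH9 were APX1, an ascorbate peroxidase that removes hydrogen peroxide (0.43 on the log2 scale), BZIP50, a transcription factor of the unfolded protein response (0.42), RAR1 (0.23) and PDIL1-3, a protein disulfide isomerase-like gene. All 3 arrays of PDIL1-3 at 0 h (4.09, 4.41 and 4.96) lay below the array medians, so no size is given for its rise. The 4 that were lower were DJA6 (-0.438), CLPB-C (-0.362), PDIL5-4 (-0.20) and CLPC1 (-0.125). DREB2B, a drought and heat regulator, was lower at 3 h in NIL-BPH9 (-0.48) and higher at 6 h than at 3 h (0.45). In 9311 DREB2B was lower at 3 h (-0.32) and 6 h (-0.31).

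The members without a probe set here were HSP16.9C, HSP18.9, HSP19.0, HSFA6A, HSFB4C and HSFC2B, and nothing is reported on them.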

How the data were processed

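RNA of rice leaf sheath was hybridised to 18 single-colour Affymetrix arrays. The deposited table holds 1 log2 value per probe set and array, made with MAS5 per the submitters' processing notes, which name no version or settings. Every array has a 2% trimmed mean linear signal of 500.1, so the arrays had been scaled alike before deposit, which hides any difference in overall RNA amount. No detection calls were used, and the number of arrays limits the precision.

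Of 57194 rice probe sets, 22436 map to 1 gene, 95 to several (not named) and 34663 are unnamed here. Names come from the platform annotation and the RefSeq gene table of assembly ASM3414082v1 in GCF_034140825.1, used for names and neighbours only. Members and lists were chosen with earlier results of these data known, so no count is adjusted over a list. Probe sets at or above the array median on at least 3 arrays (33094) were fitted with limma 3.58.1 in R 4.3.3: 6 group means, 18 arrays, eBayes with an intensity trend, two-sided, Benjamini-Hochberg, threshold 0.05. All adjusted p-values are limma's, and ± is the standard error unless SD is written. Per family, up to 4 members called with non-overlapping groups, largest change first, were to be named, plus HSFA2C and HSFA4D; the other called members were added after their values were seen. The fit was tested on simulated data for NIL-BPH9 at 3 h against 0 h. It recovered 53 of 100 changes of 2-fold and 78 of 100 of 4-fold, with 8 false calls. A real change, above all one under 2-fold, can therefore go uncalled. Alternatives covered normalization, scaling, low values, the variance trend, the arrays fitted, a replicate block, the probe sets of a gene and leaving out each array. Same-numbered arrays did not deviate together (0 of 45 same-numbered pairs of arrays correlated over 0.1, median -0.0087), so the numbers were not taken as pairs. A planned search of promoters for heat shock elements was not run, and no sequences are printed. For the root markers no gene was matched, and of the seed markers 3 of 6 were bright enough to test. GLUA-2 read 8.54 to 9.40, above the array medians of 5.18 to 5.52, while GLUB-5 read 4.46 to 5.95 and GLUA-1 0.00 to 5.58. Of these 3, 1 was called higher in NIL-BPH9 than in 9311 at 0 h, against 6.92% of all tested probe sets.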

Additional observations from a re-analysis of the deposited data

Results flagged for a closer look

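For 11 of the 41 tested members the response to infestation differed between the lines by limma's interaction test, in 17 comparisons of a member at 3 h or 6 h. The values are log2 differences, the change in NIL-BPH9 minus the change in 9311. At 3 h the more positive responses of NIL-BPH9 were 0.78 for HSFB4B, 0.55 for HSP17.7, 0.51 for HSP24.1, 0.39 for HSP81-1 and 0.28 for HSP17.9B, and the more negative were -0.76 for HSFA2C, -0.35 for HSFA2D, -0.33 for HSP17.9A and -0.32 for HSFA2E. At 6 h they were 0.70 for HSFB4B, 0.70 for HSP26.2, 0.55 for HSP17.7, 0.55 for HSFA3, 0.51 for HSP24.1 and 0.45 for HSP81-1, against -0.74 for HSFA2C and -0.28 for HSFA2D. With the mean of a gene's probe sets the 6 h differences of HSFB4B, HSP17.7, HSP81-1, HSFA2C and HSFA2D were not called, and that of HSP81-1 was 0.09. For HSFB4B, HSFA2C, HSFA2D, HSP17.7 and HSP17.9A, 5 of the 11, the lines already differed at 0 h, in the direction opposite to the response, and after infestation their levels were not called different; the same 0 h arrays enter both values.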

How the results depend on the processing

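Over the 11 comparisons members were called 99 times, and 1587 alternative values of these calls were computed: 1234 kept the call, 350 lost it and 3 reversed, and 27 calls were kept in every alternative. The 3 reversals were of HSP17.7 read from the mean of its probe sets, the second of which is near the floor: -0.43 in NIL-BPH9 at 6 h against 0 h, and -0.28 and -0.37 for the line differences in the 3 h and 6 h responses. With each array centred on its median, which moved the median of all probe sets in NIL-BPH9 at 6 h against 0 h by 0.119, the called members became 6 in NIL-BPH9 at 3 h against 0 h, 5, 3 and 7 between the lines at 0 h, 3 h and 6 h, and 4 for each line difference in the response. Without the intensity trend they became 7 in NIL-BPH9 at 3 h against 0 h and 5 for each line difference. Without a filter on low values the line difference at 6 h gave 4. With only the arrays compared they became 7 in 9311 at 3 h and 0 at 6 h against 0 h (limma; 9 at an unadjusted p under 0.05), 4 between the lines at 0 h and 4 for the line difference at 6 h. With the mean of a gene's probe sets they became 1 in 9311 at 6 h against 0 h, 3 from 3 h to 6 h, 5 between the lines at 0 h, and 5 and 3 for the line differences at 3 h and 6 h. Leaving out 1 array gave 10 to 12, 3 to 10 and 4 to 5 calls in 9311 (3 h and 6 h against 0 h, 6 h against 3 h), 7 to 9, 5 to 8 and 6 to 8 in NIL-BPH9, 6 to 10, 2 to 7 and 8 to 12 between the lines at 0 h, 3 h and 6 h, and 4 to 9 and 3 to 9 for the line differences; 54 of the 99 calls were kept without any 1 array. With the replicate block, whose numbers do not pair the samples, the calls went from 14 to 10 in NIL-BPH9 at 3 h against 0 h and from 13 to 11 between the lines at 6 h. The cause of these moves was not tested. Signals near the array median hold little above background, which limits the dim small heat shock protein genes.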
